A study of Drosophila melanogaster with 4 samples.

Results

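The 10 genes described here code for proteins of the synaptic vesicle cycle in the fruit fly, Drosophila melanogaster: unc-13, Rab3, Sap47, Frq2, nSyb, Syb, alphaSnap, Synj, Amph and Clc. They were chosen by name, with earlier results of these data known, and they occupied 22 of the 27648 spots. The array's annotation gives 1 symbol to 6793 genes, which include 31 other genes of a vesicle-cycle list. The series measured RNA from heads of adult Oregon-R wild-type males fed levetiracetam at 5 mg/ml for 3 days, against males left on normal food. Levetiracetam is used against epilepsy, and no genetic change was made in either group. Before feeding, both groups spent 7 days on normal food in vials of 30 flies. RNA came from 8 pools of heads, and each of 4 spotted 2-colour cDNA arrays compared 1 treated pool with 1 control pool, so the 4 arrays are the replicates. Cy5 labelled the drug sample on the first pair of arrays, replicates 1 and 2, and Cy3 labelled it on the swapped pair, replicates 3 and 4.

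The labels leave the age of the flies unsettled. The sample labels give 3 to 4 days, while the design text gives 7 to 10 days at the start of feeding. For replicates 2 and 3, the growth notes of both pools give 10 to 11 days of rearing after collection. The notes of replicate 1 give 2 to 3 days for the control pool, and those of replicate 4 give 2 to 3 days for the drug pool.

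At a synapse, vesicles loaded with transmitter dock at the release site, are primed, and fuse with the cell membrane when calcium enters. Fusion is driven by SNARE proteins on the vesicle and on the membrane, and the vesicle membrane is then taken back up with the help of clathrin and of lipid enzymes. In mammals levetiracetam binds SV2A, a membrane protein of synaptic vesicles. Of the members, unc-13, Rab3, Sap47, Frq2, nSyb, Syb and alphaSnap act in release, in membrane fusion or in SNARE recycling. Synj, Amph and Clc belong to membrane retrieval or to proteins that shape membranes.

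All values are log2 ratios of drug over normal food. A ratio has no absolute level, so genes cannot be ranked by expression here, and in whole heads a smaller number of neurons cannot be told apart from less RNA per neuron. The ratio was read as Cy5 over Cy3, with the swapped arrays (replicates 3 and 4) multiplied by -1. This direction is likely and not stated by the sources, so the mean is also given with the values as deposited, the reading in which the submitters had already turned the swapped arrays. Over all genes tested, every pair of arrays correlated positively as deposited, with Pearson r from 0.086 to 0.24. Once turned, pairs of opposite dye orientation correlated negatively, from -0.18 to -0.086. The cause of this was not tested. A value was present for 29.1% to 45.6% of spots per array, and spots without one had failed the submitters' filters. The number of arrays limits the precision. Cell type markers were looked up by the presence of a value, which is no test of the head label. Of all 6793 genes, 1632 had a value on all 4 arrays. A value on all 4 arrays was present for 2 of 4 photoreceptor markers named on the array (Arr1 and inaD, with none for Arr2), 1 of 5 glial markers (Gs2, with none for nrv2 and Gat), 1 of 4 fat body markers (apolpp) and 1 of 3 muscle markers (Act88F). Of the 7 neuronal markers listed only nSyb, itself a member, was named on the array, so no independent neuronal marker was available. Ratios of the markers tested had limma adjusted p-values of 1.00.

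No member passed the test for a difference between drug and normal food. In limma's fit over 2259 genes, 0 of 10 members had an adjusted p under 0.05, as did 0% of all genes tested. At an unadjusted p under 0.05 there were also 0 of 10 members, where 2.66% of all genes lay, and one-class SAM, the test that the study names, called 0 members and 0% of all genes. The member means ran from -0.21 for unc-13 to 0.42 for Synj, with a median of -0.0018 beside 0.027 over all genes. Of the 10 means 5 lay above 0, where 57.3% of all genes did. The 95% intervals of all 10 stayed within 1 of 0 on the log2 scale, which is a 2-fold change in either direction, as did the intervals of 92.4% of all genes. All 10 had a value on at least 3 arrays and entered the test, 8 of them on 4 arrays, while Frq2 and Synj had none in replicate 1. Of the 31 other listed vesicle genes 11 entered it, and of all 6793 genes 2259.

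**Figure D1:**
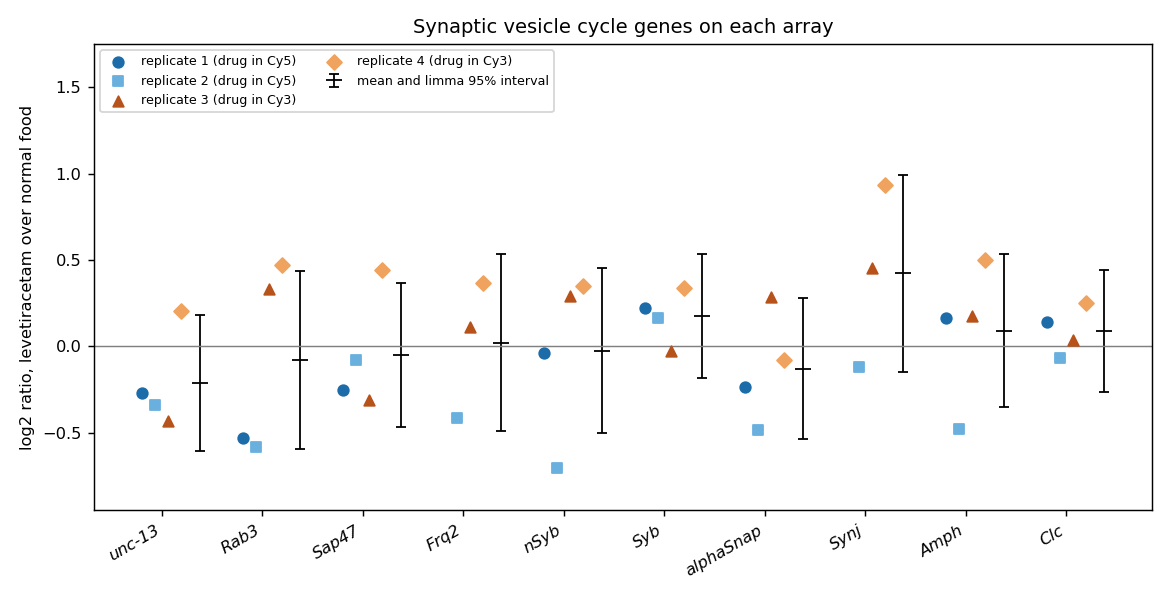
Log2 ratio of levetiracetam over normal food (vertical axis) for each of the 10 members on each array (symbols, with the dye of the drug sample), with the mean and limma's 95% interval in black. Replicate 4 is the highest array for 9 of the 10 genes and for the median of all genes, and every interval includes 0.

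The gene unc-13 codes for the factor that primes docked vesicles for release. Its ratios were -0.27, -0.34, -0.43 and 0.20 in replicates 1 to 4. The first 3 arrays lay below 0 in both dye orientations. Replicate 4 lay above 0 but below the median of all genes on that array, 0.29. The mean was -0.21 ± 0.28 (SD, n = 4), which is 1.16-fold lower with the drug, with a 95% interval from -0.60 to 0.18 and a limma adjusted p of 1.00. The array holds 2 features for this gene, and they differed in replicate 4. The first feature read -0.20, -0.41, -0.36 and 0.43, and the second -0.35, -0.27, -0.50 and -0.026. In the likely direction the second feature was thus below 0 on every array, at -0.29 ± 0.20, while the first stood at -0.14 ± 0.39. In replicate 4 the 2 spots of the second feature read -0.10 and 0.05. As deposited, the second feature read 0.50 and 0.026 in replicates 3 and 4, with a mean of -0.021. Without replicate 4 the gene stood at -0.35, and as deposited at -0.097. With each array centred on its median, unc-13 read -0.13, -0.18, -0.51 and -0.10. With a running median over 51 neighbouring features subtracted, it read -0.17, -0.35, -0.50 and -0.11. In the latter setting its unadjusted p was 0.036 and its adjusted p 0.92 in limma. It was the 1 member under 0.05 unadjusted there, and the share of all genes was not counted. As deposited, both settings put replicates 3 and 4 above 0. Within each array, unc-13 lay at the 34.1, 29.3, 4.39 and 39.1 percentiles of the genes tested, counted from the most drug-low gene. As deposited, these percentiles were 95.7 and 60.9 in replicates 3 and 4, so the low rank on every array holds in the likely direction only.

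Rab3 codes for the small GTPase that rides on synaptic vesicles and takes part in their docking. On the 4 arrays in order, its ratios were -0.53, -0.59, 0.33 and 0.47. The 2 dye orientations did not overlap, and they lay on opposite sides of 0. The mean was therefore near 0, at -0.079 ± 0.56 (SD, n = 4), with an interval from -0.59 to 0.43. In this direction it had the widest spread of the 10 genes. As deposited, the same 4 values all lay below 0 and close together, at -0.48 ± 0.11, or 1.39-fold lower with the drug if that reading were the right one. That mean had an unadjusted p of 0.0048 and an adjusted p of 0.14 in limma, and ranked 77 of 2259 genes by p. As deposited, 26.4% of the 1632 genes with 4 values were below 0 on all 4 arrays.

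Sap47 codes for a synapse-associated protein of vesicles. Its ratios were -0.25, -0.080, -0.31 and 0.44. Replicate 4 was the only array above 0. The mean was -0.050 ± 0.34, with an interval from -0.46 to 0.36, and -0.12 as deposited. Without replicate 4 the mean was -0.21. With each array centred on its median, Sap47 read -0.11, 0.081, -0.39 and 0.14, so replicate 2 was also above 0.

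Frq2 codes for a frequenin, a neuronal calcium sensor that modulates transmitter release. It had ratios of -0.41, 0.11 and 0.37 in replicates 2 to 4. The only array with the drug in Cy5 was the low one. The mean was 0.022 ± 0.40 (SD, n = 3), with an interval from -0.49 to 0.54, and -0.30 as deposited. Frq1, the closely related second frequenin gene, has its own feature, which had no value on any array. A spotted cDNA can bind transcripts of a close paralogue, and how far Frq1 RNA adds to the Frq2 spots was not tested.

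The synaptobrevins nSyb and Syb are SNARE proteins of the vesicle membrane, nSyb in neurons and Syb in most cells. The ratios of nSyb were -0.036, -0.705, 0.29 and 0.35, lowest in replicate 2. Its mean was -0.026 ± 0.48, with an interval from -0.50 to 0.45, and 0.20 without replicate 2. As deposited, all 4 arrays were below 0, with a mean of -0.35 ± 0.28, an unadjusted p of 0.045 and a limma adjusted p of 0.25. Syb read 0.22, 0.16, -0.026 and 0.34, and so varied less from array to array than nSyb. Its mean was 0.17 ± 0.15, which is 1.13-fold, with an interval from -0.18 to 0.53. As deposited, Syb stood at 0.018 and was the only member above 0. The difference between the paralogues was not tested.

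The gene alphaSnap codes for the adaptor that brings NSF to spent SNARE complexes so that they can be taken apart. Its ratios were -0.24, -0.48, 0.29 and -0.082. It was below 0 on 3 arrays, with replicate 3 above. The mean was -0.13 ± 0.32, with an interval from -0.54 to 0.28. As deposited it was -0.23. Of the 7 release genes, 2 had a mean above 0, both with intervals that include 0.

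Synj, synaptojanin, is the phosphoinositide phosphatase that helps strip the clathrin coat from newly formed vesicles. Its ratios were -0.12, 0.46 and 0.94 in replicates 2 to 4. The value of replicate 4 was the largest of all 38 member values and lay at the 94.3 percentile of that array. The mean was 0.42 ± 0.53 (SD, n = 3), or 1.34-fold, the largest of the 10, with an interval from -0.15 to 0.99 and an unadjusted p of 0.12 in limma. It was 0.17 without replicate 4 and 0.70 without replicate 2. As deposited, all 3 values were below 0 and the mean was -0.50 ± 0.41, with an unadjusted p of 0.032 and an adjusted p of 0.22, so the direction of the largest member mean depends on the reading of the sign.

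Amph, amphiphysin, is a membrane-bending BAR-domain protein which in the fly is best known for organising the tubules of muscle membrane. It read 0.17, -0.48, 0.18 and 0.50. Replicate 2 alone was below 0. The mean was 0.091 ± 0.41, with an interval from -0.35 to 0.53, and -0.25 as deposited. Clc, the clathrin light chain, read 0.14, -0.068, 0.036 and 0.25. The mean was 0.090 ± 0.14, with an interval from -0.26 to 0.44, and -0.054 ± 0.16 as deposited. All 3 retrieval genes had a mean above 0 in the likely direction, with intervals that include 0, and a mean below 0 as deposited.

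Without centring or a running median, none of the 8 members with 4 values had the same sign on all arrays in the likely direction. Of all genes with 4 values 8.15% did. In replicate 2, 1 of 10 members was above 0, and in replicate 4, 9 of 10 were. All 10 members were lower in replicate 2 than in replicate 4, and replicate 4 was the highest array for 9 of the 10. The share of all genes ordered in these ways was not counted. The share of all genes above 0 was 30.4%, 36.9%, 61.5% and 84.1% in replicates 1 to 4. Their median was -0.14, -0.12, 0.083 and 0.29, so the bulk of genes was also lower in replicate 2 than in replicate 4. Both patterns hold only with the sign turned. As deposited, 5 of 10 members were lower in replicate 2 than in replicate 4, replicate 4 was the highest array for 1 member, and the shares of all genes above 0 in replicates 3 and 4 were 38.4% and 15.9%. Relative to the median of all genes on the same array, the member median stood at 0.0040, -0.26, 0.062 and 0.066. The last 2 have the opposite sign as deposited. Without a running median, the members thus lay farthest from the bulk of genes in replicate 2 under both readings. With a running median of neighbouring features subtracted, replicate 2 read -0.35 for unc-13, -0.41 for Rab3 and -0.39 for Amph. The remaining members lay above 0 there. Sap47 read 0.68, Frq2 0.31, nSyb 0.10, Syb 0.66, alphaSnap 0.30, Synj 0.10 and Clc 0.077. Growth notes that differ between the pools belong to replicates 1 and 4. On replicates 2 and 3 alone, 2 of 10 members had a mean above 0 and unc-13 stood lowest, at -0.39, and 0 passed limma's adjusted threshold. The part of these notes in the result was not tested.

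The test of dye orientation asked whether replicates 1 and 2 differed from replicates 3 and 4, and under the other reading of the sign this term holds the drug effect. In limma, 0 of 10 members passed adjusted p 0.05, against 4.16% of all genes. At an unadjusted p under 0.05 there were 2 of 10, Rab3 and nSyb, against 21.6% of all genes. The term of Rab3 was -0.48, with an adjusted p of 0.089, and that of nSyb was -0.35, with an adjusted p of 0.23. The 94 genes that passed had a negative term in 92 cases, and the median of the deposited values was below 0 on all 4 arrays.

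Under the values as deposited, the members moved to the negative side together with the rest of the array. Of the 10 means 9 were below 0, as were 81.0% of all genes, and their median was -0.24 against -0.18 over all genes. Rab3, nSyb and Synj, 3 of the 10, had an unadjusted p under 0.05, where 19.4% of all genes did. None of the 10 passed limma's adjusted threshold, and 0% of all genes passed. SAM called 0 members and 0.133% of all genes. With each array also centred on its median, Rab3 was the 1 member left with an unadjusted p under 0.05, against 11.5% of all genes. Its centred values were -0.38, -0.42, -0.25 and -0.16, all on one side of 0, with a mean of -0.31 ± 0.12, an unadjusted p of 0.034 and an adjusted p of 0.42 in limma. With a running median over 51 neighbouring features subtracted in place of centring, Rab3 stood at -0.42, -0.41, 0 and 0.098, with a mean of -0.18 and an unadjusted p of 0.19 in limma, so it was no longer on one side of 0. As deposited and without centring, all 10 intervals again stayed within a 2-fold change, as did those of 91.5% of all genes.

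**Figure D2:**
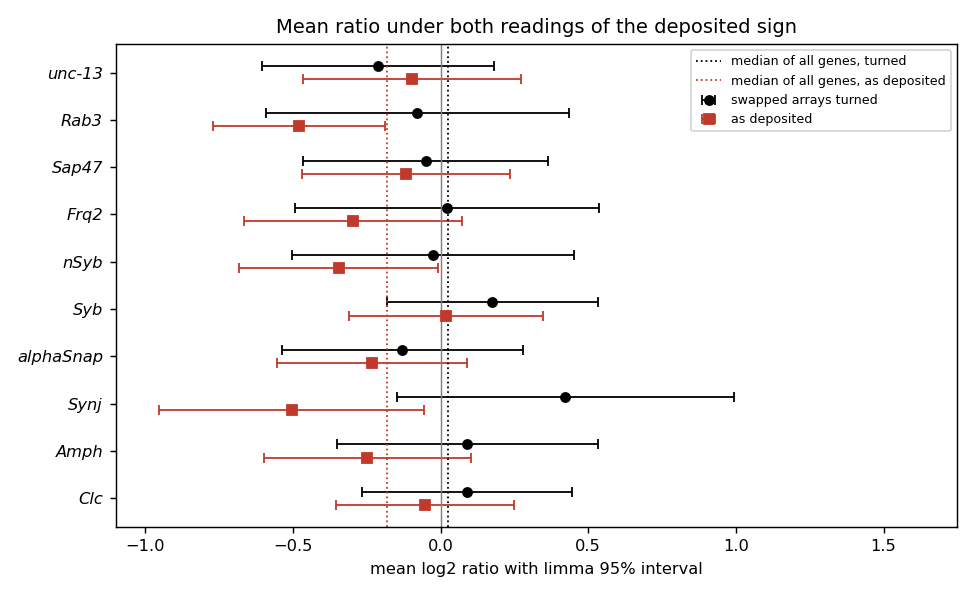
Mean log2 ratio (horizontal axis) with limma's 95% interval for each member, with the sign of replicates 3 and 4 turned (black circles) and as deposited (red squares), and the median of all genes under each reading (dotted lines). The intervals of Rab3, nSyb and Synj exclude 0 as deposited and include it once the sign is turned.

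Each feature is printed as 2 neighbouring spots, and their difference measures only the error that adjacent spots do not share. Per array, the 2 spots of a feature correlated with Pearson r from 0.17 to 0.56. Neighbouring features correlated with Spearman rho from 0.30 to 0.57. Error common to a region of the array is therefore not covered by these differences. Over 42 spot pairs of members, the median difference between both spots was 0.156 on the log2 scale and the largest 0.522, in Frq2 on replicate 2. Over all pairs on the arrays the median difference was 0.261. The 2 spots had opposite signs in 9 of the 42 pairs. For Rab3 the spots of a pair never differed by more than 0.185, while its ratios spanned 1.05 between arrays in the likely direction and 0.253 as deposited. For alphaSnap they differed by 0.510 in replicate 3 and 0.491 in replicate 4, and by 0.429 or more for Syb in replicates 1 and 4. The mean was smaller than the largest difference between a gene's own spots in 9 of the 10 members, Synj being the exception, and in 8 of the 10 as deposited. In 4 of the 10 genes the SD over arrays was larger than the largest difference between their paired spots, and in 2 of the 10 as deposited. The median SD over arrays was 0.37 for the members and 0.34 for all genes.

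**Figure D3:**
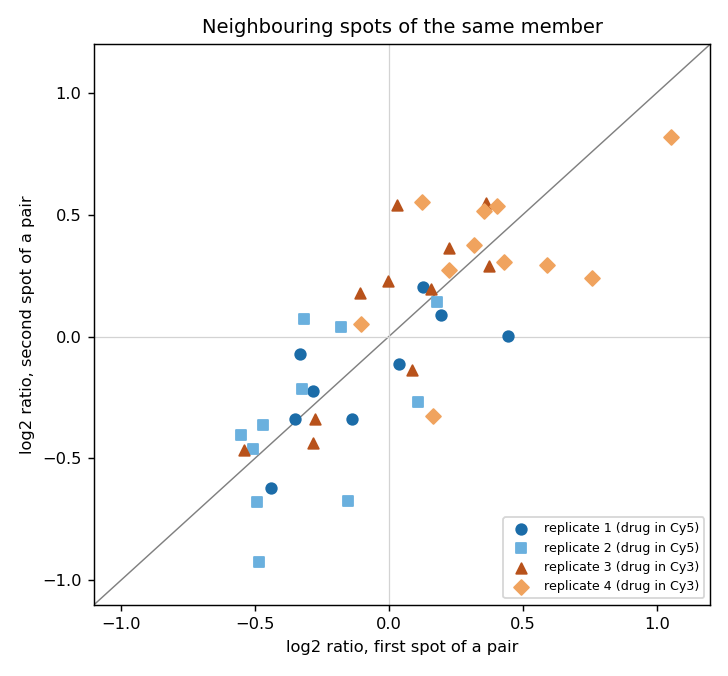
Log2 ratio of levetiracetam over normal food at the first spot (horizontal axis) and the second spot (vertical axis) of each member feature, 1 point per feature and array, with the line of equality. The 42 pairs follow the line with a median difference of 0.156, and 9 pairs lie in the quadrants of opposite sign.

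Beyond the members, 31 other genes of a vesicle-cycle list were named on the array, and 11 of them had a value on at least 3 arrays. In limma 0 of the 11 passed, 0 had an unadjusted p under 0.05, 6 means lay above 0 and 5 below, and the median was 0.0047. Among release genes, gammaSnap1, which codes for a second kind of SNARE-disassembly adaptor, read -0.43, -0.32, -0.25 and 0.35, and, as in unc-13 and Sap47, only replicate 4 was above 0. Its mean was -0.16 ± 0.35. Syt12, of the synaptotagmin family of vesicle proteins, was the only one of the 3 tested in this group with the same sign on all 4 arrays, at -0.035, -0.23, -0.12 and -0.11, and a mean of -0.12 ± 0.083. Of all 1632 genes with 4 values 8.15% did so. CASK, a scaffold kinase of the synapse, read -0.27, -0.27, 0.16 and 0.66, with a mean of 0.069 ± 0.45.

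Among genes of membrane retrieval, Pi4KIIalpha, a lipid kinase that makes the phosphoinositide PI4P, read -0.30, 0.45 and 1.41 in replicates 2 to 4. As with Synj, replicate 4 was its highest array and replicate 1 held no value. Its mean was 0.52 ± 0.86 (SD, n = 3), with an interval from -0.22 to 1.26, and -0.72 as deposited. Rab35, a GTPase of endocytic recycling, read -0.45, -0.99, 0.18 and 0.44, with both orientations on opposite sides of 0, as in Rab3. Its mean was -0.20 ± 0.64, and -0.51 as deposited with a limma adjusted p of 0.15. The auxilin gene aux, the cofactor of clathrin uncoating, read -0.20, -0.43, 0.076 and 0.086, with a mean of -0.12 ± 0.25. In the group of loading and vesicle membrane proteins 2 genes were tested. Scamp, a carrier membrane protein, stood at -0.030 ± 0.16. Syp stood at 0.0050 ± 0.27; in the fly this symbol names Syncrip, an RNA-binding protein, so it is no vesicle gene although the list holds it. As deposited, 1 of the 11 means was above 0, where 19.0% of all genes were, and 4 had an unadjusted p under 0.05, where 19.4% of all genes did, with 0 past the adjusted threshold. The dynamin gene shi had values in replicates 1 and 2 alone, at -0.27 and -0.65, and was not tested. The clathrin heavy chain gene Chc, partner of Clc, had no value on any array.

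**Figure D4:**
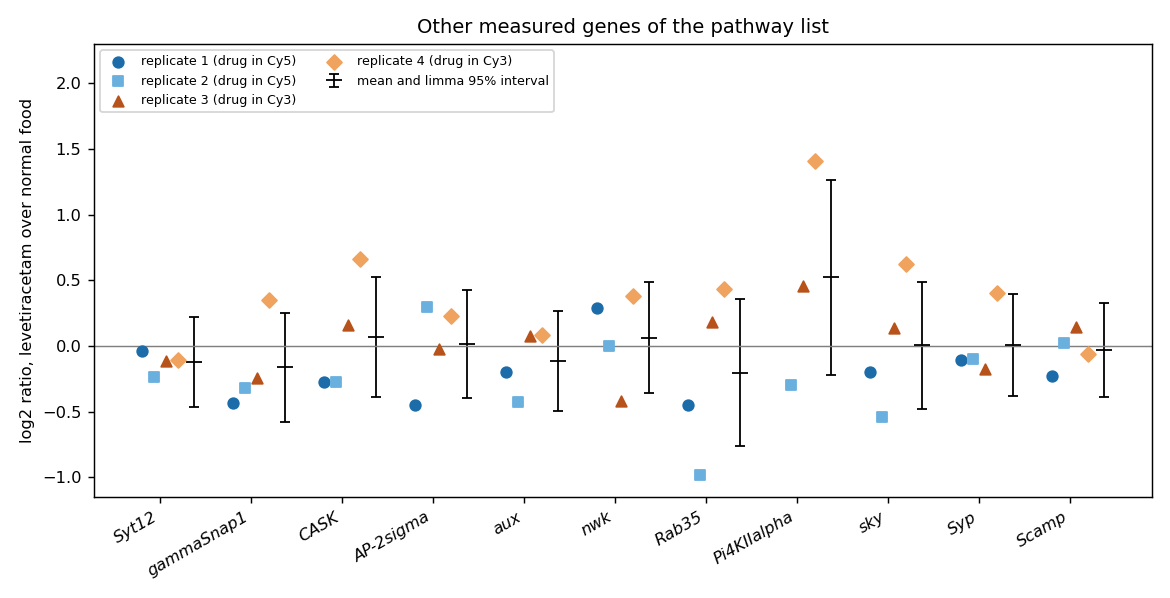
Log2 ratio of levetiracetam over normal food (vertical axis) on each array for the 11 other tested genes of the vesicle-cycle list, with the mean and limma's 95% interval in black. Replicate 4 is above 0 for 9 of the 11 genes, where 84.1% of all genes were, and every interval includes 0.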

How the data were processed

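Per the labels' protocols and the design text, slides were scanned on a GenePix 4000A, quantified in GenePix Pro 6.0 and ratio-normalized in Acuity 4.0. Spots flagged bad, over 3% saturated or under 2 in signal to noise were removed by the authors. The deposited values are log2 ratios of both channels, a scale inferred from their range. Whether arrays were centred is not given in the sources used here. The array medians as deposited were -0.15, -0.16, -0.079 and -0.30. Intensities were not analysed here.

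Neighbouring spots were averaged to features, since the annotation named 1 gene for both in 7558 of 7558 listed pairs, and features to genes. Symbols of the platform annotation were set against RefSeq by gene ID, which changed 0. Limma 3.58.1 (R 4.3.3) tested the mean against 0, two-sided, on 2259 genes with a value on at least 3 arrays, with Benjamini-Hochberg adjustment, and a second fit added dye orientation. No value was imputed. On simulated data for this comparison (2259 genes), limma called 64 of 100 genes shifted by 1 on the log2 scale. It called 93 of 100 shifted by 2, and 8 of 2059 unshifted genes. The simulated noise was independent between genes and arrays, with each gene's own SD and no array offset, dye term or effect of position. How far these rates hold for the real arrays was not tested. SAM used all 16 sign flips and a false discovery rate of 0.05.

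All 10 members are described. From each group of the pathway list, the 3 other genes with the smallest p are named where as many were tested; shi and Chc were picked after their values were seen. The members and lists were chosen with earlier results of these data known. Positions and sequences were not used here. P-values measure the spread between the 4 pairs of pools.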

Additional observations from a re-analysis of the deposited data

Results flagged for a closer look

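Of the members, 4 had every array of one dye orientation on one side of 0 and every array of the other on the opposite side. The drug ratio thus differed in sign between orientations, and as deposited these 4 were below 0 on every array with a value. Of the 8 members with 4 values 2 were below 0 on all 4 arrays as deposited, as were 26.4% of the 1632 genes with 4 values. The orientation term was -0.48 for Rab3 (limma adjusted p 0.089), -0.35 for nSyb (0.23), -0.41 for Synj (0.25) and -0.33 for Frq2 (0.34), and none passed. For Synj and Frq2 one orientation rests on replicate 2 alone.

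Among 19 sets of 4 values tested for a single array far from the others, 1 was marked, and chance marks about 1 in 20. It was Syp, at 0.40 in replicate 4.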

How the results depend on the processing

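The signs of the member means depended on several choices. As deposited, 1 of 10 means was above 0 and 4 changed sign, namely Frq2 at -0.30, Synj at -0.50, Amph at -0.25 and Clc at -0.054. With values as deposited and centred, unc-13 stood at 0.076, Sap47 at 0.056, Frq2 at -0.12, Synj at -0.32 and Amph at -0.074. As deposited with the running median over 51 features subtracted, the values were 0.021 for unc-13, 0.33 for Sap47, 0.032 for nSyb, 0.14 for alphaSnap, -0.15 for Synj and -0.082 for Amph. Turned and centred, Frq2 stood at -0.052. Turned with the running median subtracted, Sap47 stood at 0.094, nSyb at 0.13, alphaSnap at 0.026 and Amph at -0.0092. With orientation as a covariate, Frq2 was -0.087. On replicates 2 and 3 alone, Frq2 was -0.15, Amph -0.15 and Clc -0.016, with 2 of 10 means above 0. Leaving out single arrays gave 3 to 7 means above 0, and ranges of -0.26 to 0.090 for Rab3, -0.21 to 0.036 for Sap47, -0.15 to 0.20 for nSyb, -0.15 to 0.24 for Frq2 and -0.046 to 0.28 for Amph. With 4 arrays required, 8 members were left and 3 were above 0. Syb kept its sign in all 16 alternatives, and unc-13, Rab3, alphaSnap and Clc each in 14 of 16. These tallies include settings that left the means of these genes unchanged and so say nothing of stability. They are the filters on arrays, spots and extreme ratios, the median over features and the orientation covariate. Rab3 changed sign when 1 array was left out, to 0.072 without replicate 1 and 0.090 without replicate 2. No alternative gave a member or pathway gene an adjusted p under 0.05.

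Over all genes, limma called 1 gene with arrays centred and 1 with the running median subtracted, dpr16 in both cases, and 4 with orientation as a covariate (dpr16, Mst77F, Prosalpha7 and dnk), all named after their values were seen. The orientation term was called for 94 genes, for 0 with arrays centred, 11 with the running median subtracted and 53 with 4 values required. Combined settings and the pair of replicates 2 and 3 were chosen after seeing the data. The causes were not tested. The pairing of pools was used, because each array's ratio compares 1 treated pool with 1 control pool, and the labels form 1 group of ratios.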
